A study of Homo sapiens with 6 samples.

Results

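The BCL2 family genes are 10 regulators of mitochondrial apoptosis, taken by name from the table of read counts: the inhibitors BCL2, BCL2L1 and MCL1, the effectors BAX and BAK1, and the BH3-only genes BBC3, PMAIP1, BCL2L11, BIK and BID. All 10 were found among the 21776 genes of the table, and all 10 passed the filter on low counts that left 14255 genes for testing. RNA sequencing compared cells under hypoxia (1% O2, 5% CO2, balanced with nitrogen) with the same cells under normoxia (5% CO2 in air), both for 12 h and with 3 libraries each. The cells of both groups are labelled as wild-type SCC25, an established line of human oral squamous cell carcinoma, grown in DMEM/F12 with 10% fetal bovine serum, whereas the text of the paper names SCC9 for its transcriptome. One line was used, and no source states that the libraries of a group came from separate cultures, so p-values measure the spread between these libraries, which may be technical. In replicates 1 to 3, the table held 37278703, 29637189 and 29981208 counts for normoxia and 30186813, 36076088 and 32272716 for hypoxia. Genes with at least 1 count numbered 17505, 17128 and 17378 under normoxia and 18841, 18996 and 18766 under hypoxia, more in every hypoxia library. Normoxia replicate 3 stood apart from the other normoxia libraries in some hypoxia response genes, with 409 CPM (counts scaled to a common library total) of NDRG1 against 163 and 140, 10.7 of EGLN3 against 5.86 and 3.74, and 67.7 of CA9 against 32.2 and 27.3, though not in ADM or ANGPTL4. Without it 2 of the 10 genes were higher and 7 lower by counts, as with it. By FPKM, a measure defined below, 3 in place of 2 were then higher.

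Proteins of the BCL2 family decide whether the outer membrane of the mitochondrion stays closed. BCL2, BCL-xL (encoded by BCL2L1) and MCL1 hold back BAX and BAK, which otherwise form pores that release cytochrome c and start the caspases. The BH3-only proteins, among them PUMA (BBC3), NOXA (PMAIP1), BIM (BCL2L11), BIK and BID, carry stress signals to the family by binding the inhibitors, and some of them also activate BAX and BAK directly. Many of these proteins are controlled after transcription and BCL2L1 and MCL1 are spliced into forms of opposite activity, which counts per gene do not separate.

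Under hypoxia, 2 of the 10 genes rose and 7 fell by edgeR's quasi-likelihood test, with Benjamini-Hochberg adjustment over 14255 genes and a threshold of 0.05. BBC3 and BCL2L11 rose 2.38-fold and 2.18-fold. All 3 inhibitors fell, as did both effectors and the BH3-only genes PMAIP1 and BID, and BIK did not pass the threshold. Among all genes tested 39.2% were higher and 38.5% were lower, in total 77.8%, so that passing the threshold does not set the 9 genes apart from the rest of the transcriptome. Over all 10 genes, BIK included, the median log2-fold change was -0.37, against 0.023 over all genes tested. Those with a log2-fold change beyond 1 in size were BBC3 and BCL2L11 among the higher genes (19.9% of all genes tested) and BCL2 and BAX among the lower ones (10.5%), that is 4 of 10 where 30.4% of all genes did so. For 9 of the 10 genes the libraries of the 2 conditions did not overlap, with hypoxia above for 2 and below for 7. This held for 80.5% of the genes tested, 40.6% with hypoxia above and 39.9% below.

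**Figure D1:**
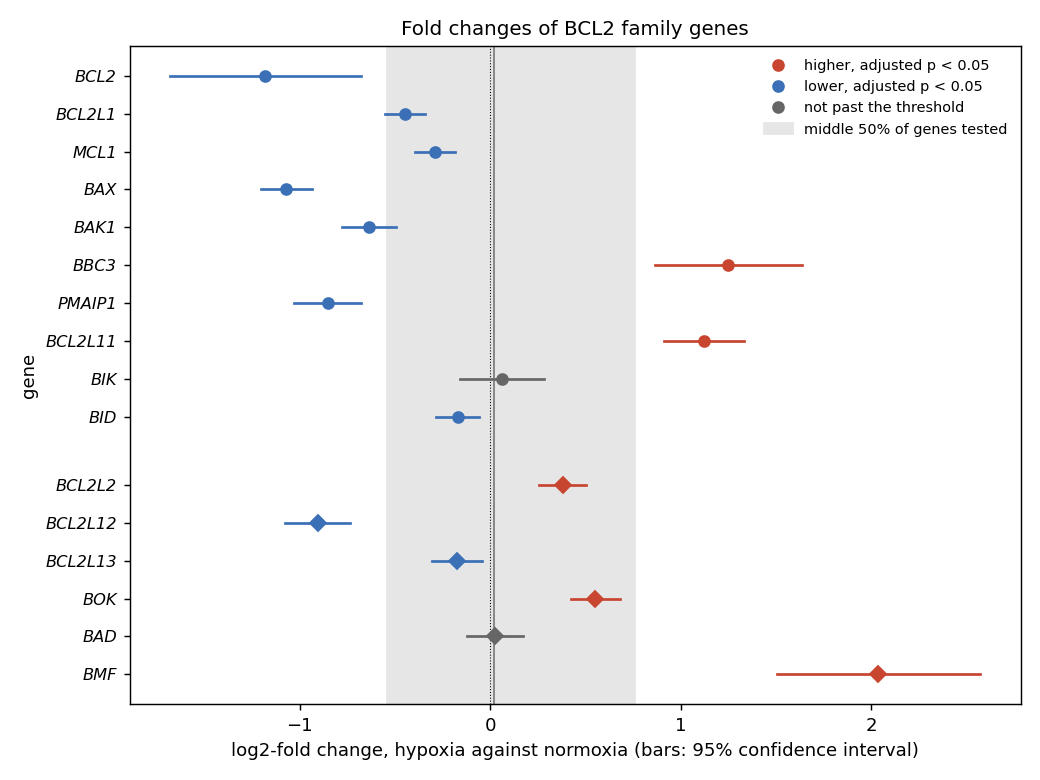
Log2-fold change under hypoxia against normoxia (x axis) of the 10 BCL2 family genes (circles) and 6 further genes of the family (diamonds), with bars for the 95% confidence interval from edgeR, colour for the call, and the middle 50% of all genes tested in grey (vertical line: their median, 0.023). BBC3 and BCL2L11 lie at 1.25 and 1.12, right of the grey band, and BAX and BCL2 at -1.07 and -1.18, left of it.

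The promoters of the genes that rose and of those that fell are set side by side here because hypoxia acts on many genes through the hypoxia response element, whose core is ACGTG or GCGTG. RefSeq (GRCh38.p14) gave 13 start sites for 8 of the 10 genes, and the 250 bases before each were searched on both strands. The core was found in 9 of the 13 windows, belonging to 6 genes, and in 43.2% of 35116 windows of the same length over all genes. Of the 9 windows 4 are those of BID, in pairs that overlap and share matches. The windows given, on the strand of the gene, are those of BBC3 (chr19:47232668-47232917, minus strand) and BCL2L11 (chr2:111120664-111120913, plus strand), which rose, and of BAX (chr19:48954625-48954874, plus strand) and PMAIP1 (chr18:59899746-59899995, plus strand), which fell. Capitals mark each core on either strand.
BBC3: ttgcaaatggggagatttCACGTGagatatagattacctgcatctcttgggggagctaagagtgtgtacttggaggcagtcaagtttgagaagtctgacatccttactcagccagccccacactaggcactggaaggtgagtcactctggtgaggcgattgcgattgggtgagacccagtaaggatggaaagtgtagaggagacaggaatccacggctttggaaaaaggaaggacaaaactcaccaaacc
BCL2L11: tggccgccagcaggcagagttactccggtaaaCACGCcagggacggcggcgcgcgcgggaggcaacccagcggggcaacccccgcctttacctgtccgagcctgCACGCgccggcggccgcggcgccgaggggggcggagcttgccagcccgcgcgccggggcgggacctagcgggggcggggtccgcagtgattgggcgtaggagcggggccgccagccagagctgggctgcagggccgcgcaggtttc
BAX: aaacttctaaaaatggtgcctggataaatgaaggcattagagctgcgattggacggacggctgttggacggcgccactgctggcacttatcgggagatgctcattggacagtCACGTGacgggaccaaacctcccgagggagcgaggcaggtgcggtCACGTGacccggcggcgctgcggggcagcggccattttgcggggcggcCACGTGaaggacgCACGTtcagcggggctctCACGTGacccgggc
PMAIP1: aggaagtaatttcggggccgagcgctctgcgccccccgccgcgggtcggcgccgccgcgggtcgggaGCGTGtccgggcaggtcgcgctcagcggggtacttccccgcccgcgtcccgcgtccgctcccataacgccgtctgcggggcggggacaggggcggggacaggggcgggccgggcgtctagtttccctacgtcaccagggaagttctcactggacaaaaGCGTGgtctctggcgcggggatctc
The 4 windows shown were taken from the 6 genes with a core. The 2 genes with a window and no core, BCL2 and BAK1, fell. The core of BBC3 and 4 of the 5 cores of BAX lie within CACGTG, the E-box that MYC and related factors bind. CACGTG was also found for BID, and in 6.34% of all windows. At least 4 copies, as in BAX, occurred in 5 of the 35116 windows (0.0142%), a count made after the sequence had been seen. The FOXO motif GTAAACA lies 223 bases before the start of BCL2L11, where its end overlaps a core, and is in 2.98% of all windows. The AP-1 motif TGANTCA lies 113 bases before the start of BBC3 (6.57% of all windows), and the p53 half-site 73 bases before the start of BAK1 (5.57%). The C/EBP-ATF motif TGATGNAA (3.14% of all windows) and the E2F motif TTTCGCGC (0.439%) were in 0 of the 13 windows, whereas the GC box GGGCGG was in 8 of them (42.6% of all windows). These 8 windows belong to 5 genes, and 4 of them are again those of BID. A match describes the letters of these windows and was not tested for binding.

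**Figure D2:**
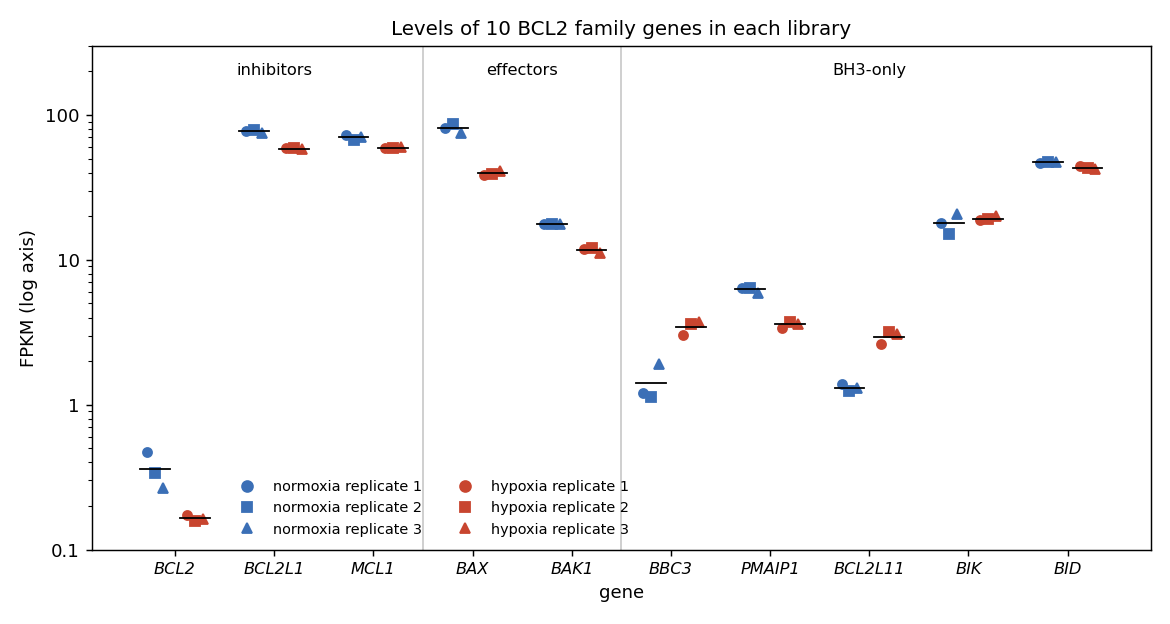
FPKM (y axis, log scale) of the 10 BCL2 family genes (x axis, by role) in each of the 6 libraries, with blue for normoxia, red for hypoxia, a symbol for each replicate and a line for the mean of 3 libraries. The 2 conditions are apart for each gene but BIK, and BCL2 is the lowest gene in every library.

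Levels of different genes were compared in FPKM, in which the fragments of a gene are divided by its length and by the library total. Under normoxia BAX (80.9 ± 5.62 FPKM, SD, n = 3), BCL2L1 (77.4 ± 2.03) and MCL1 (70.3 ± 2.79) were the most abundant of the 10 genes. Under hypoxia the order changed at the top, with MCL1 (59.4 ± 0.709 FPKM, SD, n = 3) and BCL2L1 (58.7 ± 0.699) above BID (43.4 ± 1.23) and BAX (39.8 ± 1.34). BCL2 came last in both conditions. The place of BAX depends on its length, 1462 bases as the FPKM imply and 2587 exonic bases in GENCODE v29, on which it would lie below BCL2L1 and MCL1 under normoxia as well. Neighbours whose libraries overlapped, and whose order is therefore not resolved, were BAX and BCL2L1, BIK and BAK1, and BBC3 and BCL2L11 under normoxia. Under hypoxia they were MCL1 and BCL2L1, PMAIP1 and BBC3, and BBC3 and BCL2L11.

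Among the inhibitors, BCL2L1 (Entrez gene 598), which encodes BCL-xL, had 77.8, 79.1 and 75.1 FPKM under normoxia and 59.0, 59.2 and 57.9 under hypoxia. The groups were apart, with hypoxia lower, and the hypoxia libraries were closer to each other than the normoxia libraries. BCL2L1 fell by 0.45 on the log2 scale (standard error 0.051, adjusted p = 3.53e-07 by edgeR), a 1.36-fold decrease, and 62.6% of all genes tested changed by more. The antisense gene ABALON shares 1424 exonic bases with BCL2L1 in GENCODE v29. Whether the counting used the strand is not given in the sources used here, and ABALON had at most 32 counts in a library, against at least 5248 for BCL2L1. MCL1 (Entrez gene 4170), a short-lived inhibitor on which many carcinoma cells rely, had 73.1, 67.5 and 70.3 FPKM under normoxia and 58.9, 59.0 and 60.2 under hypoxia. The groups did not overlap. MCL1 fell by 0.29 on the log2 scale (standard error 0.050, adjusted p = 4.22e-05 by edgeR), 1.22-fold, the smallest change of the 3 inhibitors.

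BCL2 itself (Entrez gene 596), the founding member of the family, was expressed at a low level. It had 182, 104 and 82 counts in the normoxia libraries and 54, 59 and 54 in the hypoxia libraries, which corresponds to 0.471, 0.339 and 0.264 FPKM against 0.173, 0.158 and 0.161. The normoxia libraries differed among themselves by more than the hypoxia libraries, yet all 3 were higher. BCL2 fell by 1.18 on the log2 scale (standard error 0.24, adjusted p = 0.00022 by edgeR), 2.26-fold. The size of the decrease depended on normoxia replicate 1, without which it was 0.95, while leaving out normoxia replicate 3 gave 1.37.

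The effectors fell together. BAX (Entrez gene 581) had 81.5, 86.3 and 75.1 FPKM under normoxia and 38.8, 39.3 and 41.3 under hypoxia, with a wide gap between the highest hypoxia and the lowest normoxia library. BAX fell by 1.07 on the log2 scale (standard error 0.064, adjusted p = 7.35e-11 by edgeR), a 2.10-fold decrease and the smallest p-value of the 10 genes. BAK1 (Entrez gene 578), whose product sits in the mitochondrial membrane already in healthy cells, had 17.7, 17.6 and 17.6 FPKM under normoxia and 11.9, 12.1 and 11.1 under hypoxia. The normoxia libraries were nearly equal and all hypoxia libraries lay below them. BAK1 fell by 0.64 on the log2 scale (standard error 0.067, adjusted p = 1.21e-07 by edgeR), 1.55-fold. GGNBP1 shares 91 exonic bases with BAK1 on the opposite strand and is not in the table.

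The BH3-only genes did not move as a group: BBC3 and BCL2L11 rose, PMAIP1 and BID fell, and BIK did not pass the threshold. BBC3 (Entrez gene 27113) encodes PUMA, a p53 target that binds all the inhibitors. It had 1.21, 1.14 and 1.90 FPKM under normoxia and 3.03, 3.59 and 3.74 under hypoxia. Normoxia replicate 3 was the highest of its group and was still below every hypoxia library. BBC3 rose by 1.25 on the log2 scale (standard error 0.18, adjusted p = 7.35e-06 by edgeR), and by 1.12 to 1.49 with single libraries left out, the highest value being that without normoxia replicate 3. It rests on 107, 80 and 135 counts in the normoxia libraries and 217, 308 and 287 in the hypoxia libraries. MIR3190 and MIR3191, which lie within exons of BBC3, are not in the table.

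BCL2L11 (Entrez gene 10018) encodes BIM, which is bound by all the inhibitors and activates BAX. It had 1.39, 1.24 and 1.31 FPKM under normoxia and 2.61, 3.18 and 3.06 under hypoxia, with no overlap. BCL2L11 rose by 1.12 on the log2 scale (standard error 0.0996, adjusted p = 1.38e-08 by edgeR). Its exons share 727 bases with the noncoding gene MIR4435-2HG on the opposite strand, which had 1634, 1385 and 1259 counts under normoxia and 919, 1065 and 907 under hypoxia. BCL2L11 had 399, 282 and 302 counts under normoxia and 606, 884 and 761 under hypoxia. The part of MIR4435-2HG in the counts of BCL2L11 was not tested.

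PMAIP1 (Entrez gene 5366) encodes NOXA, which binds MCL1 and marks it for degradation. It had 6.43, 6.43 and 5.94 FPKM under normoxia and 3.41, 3.74 and 3.60 under hypoxia. PMAIP1 fell by 0.85 on the log2 scale (standard error 0.083, adjusted p = 4.99e-08 by edgeR), 1.81-fold, in the direction opposite to BBC3, the other BH3-only gene of the 10 best known as a p53 target. BID (Entrez gene 637), which links death receptors to the mitochondrion once caspase-8 has cleaved it, was the most abundant BH3-only gene, with 46.4, 47.6 and 47.8 FPKM under normoxia and 44.7, 43.2 and 42.3 under hypoxia. The groups did not overlap but lay close. BID fell by 0.17 on the log2 scale (standard error 0.053, adjusted p = 0.00712 by edgeR), and lost this call when 10 counts were required in every library (-0.093, adjusted p = 0.105 by edgeR).

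BIK (Entrez gene 638), a BH3-only gene whose product acts mainly from the endoplasmic reticulum, had 18.0, 15.0 and 20.7 FPKM under normoxia and 18.7, 19.1 and 19.9 under hypoxia. The hypoxia libraries lay inside the range of the normoxia libraries. Its log2-fold change was 0.062 (standard error 0.10, adjusted p = 0.592 by edgeR), with a 95% confidence interval from -0.16 to 0.28, so that a change of the size seen for BBC3, BCL2L11 or PMAIP1 lies outside the interval.

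Within each library, the sum of the FPKM of the 10 genes was divided among the 3 classes, as a description without a test. The effectors held 30.7% ± 1.46 of the sum under normoxia (SD, n = 3) and 21.3% ± 0.275 under hypoxia. The BH3-only genes held 23.1% ± 1.26 and 29.98% ± 0.108, and the inhibitors 46.1% ± 0.564 and 48.8% ± 0.174. The share of the BH3-only genes was larger under hypoxia although their summed FPKM was 74.2 ± 3.12 under normoxia and 72.7 ± 0.182 under hypoxia, since the sums of the other classes were lower. Most of the BH3-only sum was BID (47.3 FPKM under normoxia and 43.4 under hypoxia) and BIK (17.9 and 19.3). BBC3, BCL2L11 and PMAIP1 therefore weighed little in this share. The ratio of BCL2L1 to BAX was 0.955, 0.917 and 1.00 in the normoxia libraries and 1.52, 1.51 and 1.40 in the hypoxia libraries. The ratio of BCL2L1 to BCL2L11 moved the other way, with 56.0, 64.0 and 57.5 under normoxia and 22.6, 18.6 and 18.9 under hypoxia. Between both abundant inhibitors the ratio of BCL2L1 to MCL1 was 1.06, 1.17 and 1.07 under normoxia and 1.00, 1.00 and 0.961 under hypoxia. The ratio of BBC3 to PMAIP1 was 0.188, 0.177 and 0.319 under normoxia and 0.888, 0.961 and 1.04 under hypoxia. Levels and ratios between genes rest on the 1 length per gene that the deposited FPKM imply, 2376 bases for BBC3 and 4248 for PMAIP1, whereas their exons cover 3180 and 2235 bases in GENCODE v29, on which BBC3 would stay below PMAIP1 under hypoxia too. For a pair of genes, the relative change of their ratio between conditions does not depend on the lengths, whereas class shares and their changes do.

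**Figure D3:**
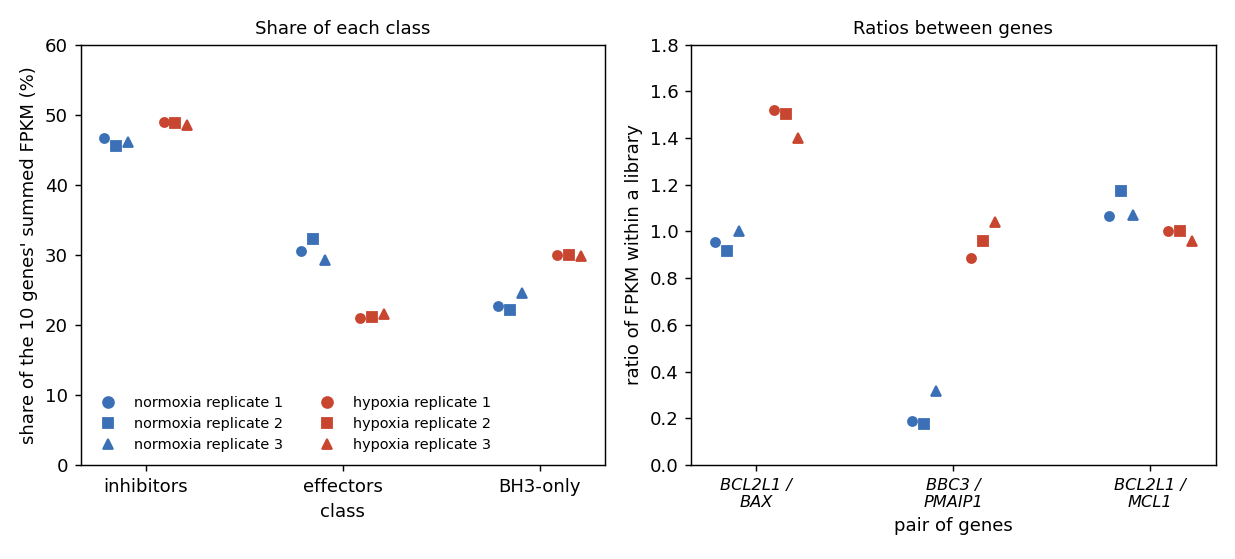
Left, share of each class in the summed FPKM of the 10 BCL2 family genes (y axis, percent) in each library, with blue for normoxia and red for hypoxia. Right, ratios of FPKM between pairs of genes in each library: BCL2L1 to BAX lies between 0.917 and 1.00 under normoxia and between 1.40 and 1.52 under hypoxia, and BBC3 to PMAIP1 between 0.177 and 0.319 and between 0.888 and 1.04.

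The deposited FPKM, tested with limma as log2(FPKM + 1), gave the same calls for the 9 genes that averaged 1 FPKM or more: 2 higher, 6 lower and BIK not past the threshold. Of the 10976 genes tested this way 36.7% were higher and 44.2% lower. BCL2 was below the minimum and was not tested. On this scale BBC3 rose by 0.89 (standard error 0.12, adjusted p = 3.86e-05 by limma) and BCL2L11 by 0.77 (standard error 0.080, adjusted p = 5.76e-06 by limma), less than by edgeR because the added 1 weighs on low values.

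The other genes of the family were read from a list of 11, of which 10 were in the table and 7 passed the filter on low counts. Of these, 4 were higher, 2 lower and BAD, a BH3-only gene, did not pass the threshold (log2-fold change 0.026, adjusted p = 0.732 by edgeR), where 77.8% of all genes tested did. BMF, a BH3-only gene whose product binds the dynein light chain as BIM does, had 984, 1090 and 988 counts under hypoxia and 239, 94 and 376 under normoxia. The normoxia libraries of BMF were widely spread but all below the hypoxia libraries. BMF rose by 2.04 on the log2 scale (standard error 0.25, adjusted p = 1.03e-06 by edgeR), and by 1.69 without normoxia replicate 2 and 2.60 without normoxia replicate 3. BOK, an effector related to BAX, rose by 0.55, and BCL2L2, which encodes the inhibitor BCL-w, rose by 0.38 (adjusted p = 1.90e-07 and 1.60e-05 by edgeR), so that this inhibitor moved in the direction opposite to BCL2, BCL2L1 and MCL1. BCL2L2 shares 813 exonic bases with the readthrough gene BCL2L2-PABPN1 (at most 13 counts in a library) and 206 with PPP1R3E, on the opposite strand. PPP1R3E had 469, 660 and 557 counts under hypoxia and 100, 87 and 108 under normoxia, and up to that level the counts of both genes cannot be assigned to one strand. BCL2L2 had 1571, 1952 and 1784 counts under hypoxia and 1523, 1163 and 1198 under normoxia. The part of PPP1R3E in the rise of BCL2L2, and so in its direction, was not tested. BCL2L12 fell by 0.90 (adjusted p = 1.60e-08 by edgeR) and shares 734 exonic bases with IRF3 on the opposite strand, and BAD shares 404 with GPR137. IRF3 had 1853, 2128 and 1888 counts under hypoxia and 2738, 2020 and 2166 under normoxia. BCL2L12 had fewer, 745, 874 and 910 under hypoxia and 1800, 1447 and 1274 under normoxia. The part of IRF3 in the fall of BCL2L12 was not tested. The other 2 called genes were named after their values were seen: BCL2L13 fell by 0.17, and BCL2L14, with 10, 37 and 28 counts under hypoxia against 0, 1 and 1, was at least 7.62-fold higher, taking 3 counts in each normoxia library as the limit. BCL2L14 passed the filter through its hypoxia counts alone, and with at least 10 counts required in each library 3 genes of the list were higher. The middle value of these genes was that of BCL2L2 (0.38), with BCL2L14 at its limit or not. BCL2A1, BCL2L15 and HRK had at most 10 counts in any library and were not tested.

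The step after the pores open was described by 15 genes of mitochondrial release and caspase activation. Of these 2 were higher, 12 lower and 1 not past the threshold, with a median log2-fold change of -0.38 against 0.023 over all genes, of which 39.2% were higher and 38.5% lower. CYCS, which encodes cytochrome c, had the largest change of the list, a fall of 1.59 on the log2 scale (standard error 0.071, adjusted p = 2.01e-12 by edgeR). CYCS has many processed pseudogenes, between which its reads could have been divided. The gene of the mitochondrial channel VDAC3 fell by 0.81. In contrast, CASP9, the initiator caspase of this pathway, rose by 0.95 (adjusted p = 6.21e-07 by edgeR), and so did APAF1, the scaffold on which CASP9 is activated, by 0.80 (adjusted p = 7.03e-07 by edgeR), a gene named after its value was seen. Apart from CYCS, 0 genes of this list had a log2-fold change beyond 1.

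Among the inhibitors of caspases, 5 of 7 genes were tested, and 3 were higher and 1 lower, beside 77.8% called in either direction over all genes tested. BIRC5, which encodes survivin, fell by 1.36 (standard error 0.057, adjusted p = 9.98e-13 by edgeR). BIRC3 and BIRC2, the cellular inhibitors of apoptosis, rose by 0.48 and 0.26, and BIRC6 rose by 0.17 (adjusted p = 3.76e-06, 0.000474 and 0.00798 by edgeR). BIRC6 lost its call without the filter on low counts and without normoxia replicate 2 (adjusted p = 0.0609 and 0.0555 by edgeR). The median of the 5 genes was 0.17.

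Transcription factors known to act on BCL2 family genes moved in both directions. Of 21, 8 were higher, 7 lower and 6 not past the threshold (median log2-fold change 0.080), shares close to the 39.2% higher and 38.5% lower among all genes tested. MYC fell by 2.88 (standard error 0.10, adjusted p = 1.30e-13 by edgeR), and HIF1A, the oxygen-sensitive subunit whose protein is stabilized under hypoxia, fell by 2.26 at the transcript level. EPAS1, which encodes the other main oxygen-sensitive subunit, rose by 1.40 and ARNT, which encodes their common partner, by 0.61 (adjusted p = 3.48e-12 and 6.61e-08 by edgeR), and both were named after their values were seen. JUN, a component of AP-1, rose by 1.90 and FOXO4 by 1.68 (adjusted p = 3.51e-12 and 3.79e-07 by edgeR). The factors best known for BCL2L11 and BBC3 were added to these after their values were seen. FOXO3, an activator of both genes, rose by 1.13 (standard error 0.060, adjusted p = 1.70e-11 by edgeR), and E2F1 fell by 1.54 (adjusted p = 1.25e-11 by edgeR). DDIT3, the stress factor CHOP, had a log2-fold change of 0.27 that did not pass the threshold (adjusted p = 0.138 by edgeR).

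Because BBC3, PMAIP1 and BAX are p53 targets that moved in different directions, 22 further p53 targets outside the family were read. Of these 10 were higher, 6 lower and 6 not past the threshold, with a median log2-fold change of 0.085, where 39.2% of all genes tested were higher and 38.5% lower. TP53INP1, which encodes a stress-induced nuclear protein, rose by 3.45, the cytokine gene GDF15 by 2.38 and BTG2, an antiproliferative gene, by 1.56. AEN, an apoptosis-enhancing nuclease, fell by 2.42 (adjusted p = 3.15e-13 by edgeR). MDM2, which encodes the ligase that degrades p53, rose by 1.02 (adjusted p = 1.86e-10 by edgeR) and was named after its value was seen.

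Genes whose products bind, modify or degrade BCL2 family proteins formed the last list, with 20 of 21 tested, 5 higher, 9 lower and 6 not past the threshold (median log2-fold change -0.14), beside 39.2% higher and 38.5% lower over all genes tested. YWHAH and SFN, adaptors of the family that holds phosphorylated BAD in the cytosol, fell by 1.24 and 0.80. The kinase gene PIM1, which phosphorylates BAD, rose by 0.99, and TPT1, whose product binds MCL1, rose by 0.69, although TPT1 has many pseudogene copies that could share its reads. The largest adjusted p-value of the 4 was 5.97e-08 (edgeR).

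The labels were checked on genes with a known response. All 15 hypoxia response genes were higher under hypoxia, among them EGLN3, NDRG1, ANGPTL4 and ANKRD37 with log2-fold changes of 6.69, 5.40, 3.89 and 3.79. With single libraries left out, the value of EGLN3 ranged from 6.41 to 7.13 and that of NDRG1 from 5.13 to 6.03. BNIP3, a mitophagy receptor that also binds BCL2, is one of the 15 and rose by 1.74. Of 8 markers of squamous epithelium, 7 were tested, and their summed level was 1607, 1643 and 1778 CPM under normoxia (replicates 1 to 3) and 2346, 2449 and 2367 under hypoxia, with EGFR the most abundant. Of the 7, 3 were higher and 3 lower. The higher sum came mainly from EGFR (958 CPM under normoxia and 1462 under hypoxia) and CDH1 (188 and 479 CPM), whereas the keratin gene KRT6A fell by 4.12 on the log2 scale, EPCAM by 0.35 and KRT5 by 0.18. The keratins did not move together, since KRT17 rose by 1.06 (adjusted p = 6.80e-08 by edgeR). KRT14 had at most 1 count in a library. Markers of other cell types were low but higher under hypoxia, where more genes had a count. The 6 fibroblast markers summed to 4.03, 3.15 and 5.64 CPM under normoxia and 22.1, 18.7 and 17.1 under hypoxia, most of it COL1A1, while COL3A1 had at most 2 counts. The 4 leukocyte markers in the table summed to 0.887, 0.769 and 1.62 CPM against 6.32, 5.51 and 5.76, most of it CD14, with at most 2 counts of PTPRC and 1 of CD3E, and the 4 endothelial markers to 0.296, 0.315 and 0.744 against 1.67, 1.26 and 1.51. Their part in the changes of the BCL2 family genes was not tested. In such libraries of whole cultures, fewer cells expressing a gene and less RNA per cell cannot be told apart.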

How the data were processed

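RNA was extracted with an RNeasy kit, and libraries were made with a SMARTER mRNA-Seq kit, per the labels. The authors deposited raw counts per gene, whole numbers without normalization, and FPKM, which for the genes named follow from the counts, 1 length per gene and the library total. Aligner, counting tool and annotation are not given in the sources used here. The submitters' processing notes name the builds GRCm38 and mm10, which are of the mouse, while samples and gene symbols are human, so no coordinates were taken from the files. Replicates differed by more than sampling noise (chi-square divided by the number of genes, 4.90 to 10.8).

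Counts were tested with edgeR 4.0.16 (R 4.3.3): quasi-likelihood F test, TMM, filterByExpr, condition as the only term, Benjamini-Hochberg adjustment at 0.05 over all genes tested. Standard errors were obtained as the log2-fold change over the root of the F statistic. CPM used TMM-adjusted totals. FPKM were tested with limma 3.58.1 on log2(FPKM + 1) for means of at least 1 FPKM. The fits were checked on simulated data with known changes. Alternatives were DESeq2 1.42.0 size factors and Wald test, 2 other filters, a replicate block, each library left out, and for FPKM a pseudocount of 0.1 and no filter. With 3 or fewer counts in every normoxia library, fold changes are lower bounds. Exon overlaps came from GENCODE v29 and promoters from RefSeq. All members were named, and from each other list up to 4 genes with the largest changes among those called with a mean log2 CPM of at least 1, with exceptions stated and some genes not reported here. Members and lists were chosen with earlier results of these data known.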

Additional observations from a re-analysis of the deposited data

How the results depend on the processing

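Of the 110 values of the 10 genes under 11 alternatives of the counts, 108 kept their direction and side of the threshold. BIK changed sign without normoxia replicate 2 (-0.044, with a range up to 0.16 over the libraries left out), and BID lost its call with at least 10 counts in every library (-0.093), a filter that moved the log2-fold changes of shared genes up by a median of 0.077. Thus 2 genes were higher under every alternative and 6 or 7 lower, while 9967 to 11920 genes of the whole table were called, and 10669 to 11390 with one library left out. By FPKM, 2 or 3 genes were higher and 5 to 7 lower, with 5 in place of 6 under the replicate block. The count of 3 was found without normoxia replicate 3, where BIK was called higher as well. Among 28 other named genes, BIRC6 lost its call without a filter (0.12) and without normoxia replicate 2 (0.13), and 0 changed sign. The counts of the longer lists moved more. Between 6 and 10 transcription factors were higher over the alternatives, against 8 in the main fit. Of the regulators of BCL2 family proteins, 4 to 7 were higher and 9 to 12 lower, against 5 and 9. Same-numbered replicates did not deviate together (correlations 0.0175, -0.0690 and 0.00122), and with the replicate block 2 genes of the family were higher and 7 lower, as without the block, and 10875 were called in all. The further BCL2 family genes lower went from 2 to 1 without hypoxia replicate 2 or normoxia replicate 1 and under the filter that cost BID its call. The gene lost was BCL2L13. Without a filter on low counts 3 of these genes were lower. Depth limits BCL2A1, BCL2L15 and HRK, with at most 10 counts. The intervals of BCL2 and BBC3 were the widest of the 10. Whether low counts or the spread between libraries widened them was not tested.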
